A study of Oryza sativa with 45 samples.

Results

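The rice line IR64(AG1) was compared with itself at 4 d and at 2 d after its dry seeds were placed under soil and flooded. The comparison took every library whose labels gave this genotype and one of these ages, 6 of the 45 samples, with 3 at 2 d and 3 at 4 d. IR64 is an indica cultivar, and IR64(AG1) is a near-isogenic line of it that carries the anaerobic germination locus AG1, introduced from the landrace Khao Hlan On. The other lines of the study were IR64 itself, IR64(SUB1) with the submergence tolerance locus SUB1 and the pyramided line IR64(AG1,SUB1), all flooded in the same way and sampled up to 14 d.

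The seeds lay under soil in pots that were kept completely submerged, in a nethouse, and no unflooded library is part of the comparison. Germination was scored in the study by emergence of the coleoptile. It reports no germinated seed in any line at 2 d, and the highest share in IR64(AG1) at 4 d. The labels name the tissue of the 2 d libraries embryo and that of the 4 d libraries coleoptile, while the study describes embryo, coleoptile and shoot tissue of 45 seedlings pooled for each RNA sample. Day, tissue label and stage of germination therefore cannot be told apart. Each group stands for 1 breeding line in triplicate biological experiments. The libraries were poly(A)+ and strand-specific, and the strand setting of the read counting was not given in the sources used here.

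The coleoptile is the sheath that covers the first leaf of a grass, and in rice it is the organ that elongates through floodwater when oxygen is too scarce for root and leaf growth. Its growth is fed by starch of the endosperm, which amylases break down to sugars, and by ethanol fermentation, in which pyruvate decarboxylase takes the committing step. AG1 holds TPP7, a trehalose 6-phosphate phosphatase that lowers the level of the sugar signal trehalose 6-phosphate. TPP7 itself was not analysed here.

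The 2 d libraries held 19933089, 13126967 and 16830770 counts and the 4 d libraries 20165211, 16739586 and 21856515. Levels are given as CPM, the counts scaled to a common library size with TMM factors, so 3 counts correspond to between 0.161 and 0.246 CPM in these libraries. The levels carry no gene length and are compared between libraries, not between genes. Across genes, the log2 levels of 2 libraries of the same day correlated at 0.977 to 0.979 and those of libraries of different days at 0.957 to 0.963. SUB1A-01, the gene of the other locus, had 1 count in replicate 1 at 2 d and 0 in the other 5 libraries.

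Of 26180 genes tested, 2179 differed between 2 and 4 d, which is 8.32%. A gene was called when its log2 fold change passed 1 in either direction and its adjusted p was under 0.05 in the quasi-likelihood test of edgeR, with Benjamini-Hochberg adjustment over all tested genes. The rise was called for 1353 genes (5.17%) and the fall for 826 (3.16%). Among the rises 803 were under 4-fold, 238 lay between 4- and 8-fold and 312 were larger, and among the falls the same classes held 535, 127 and 164 genes. In 116 of the genes called up no 2 d library had a count, and in 74 of those called down no 4 d library had one. These genes have no measured level on 1 of the days, so their fold class is uncertain. A mean of at least 10 CPM was reached at 4 d by 417 of the genes called up and at 2 d by 294 of those called down. The median over all tested genes was 0 on the log2 scale. The 3 libraries of one day lay apart from the 3 of the other in 37.6% of all tested genes.

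**Figure D1:**
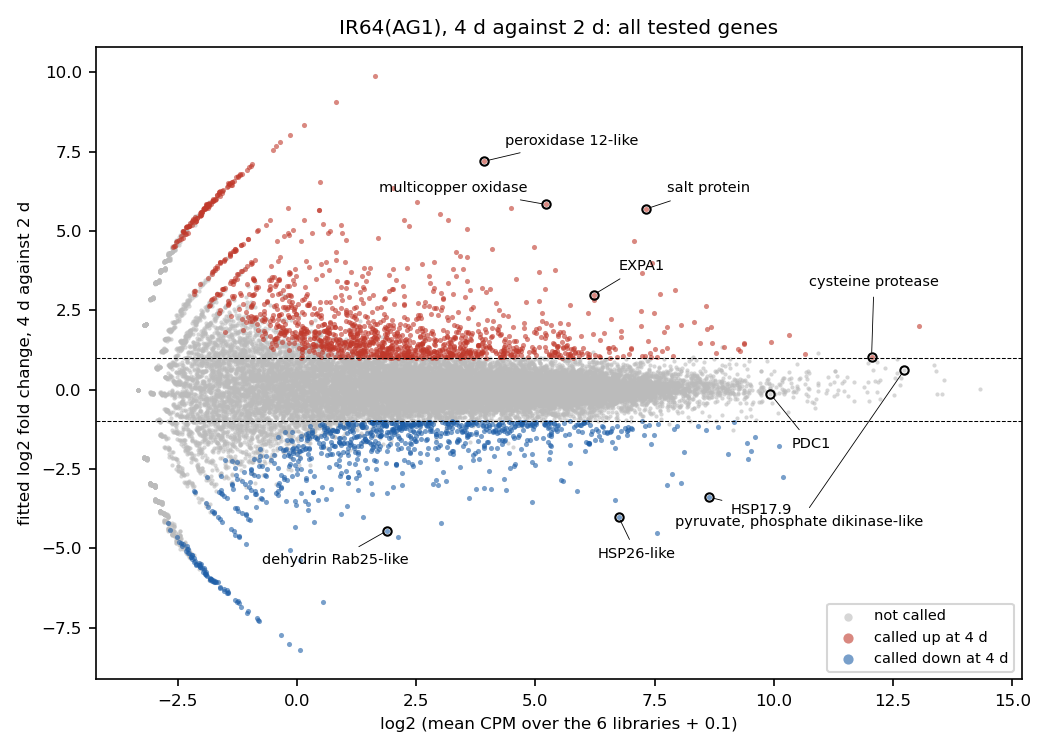
Fitted log2 fold change from 2 to 4 d in IR64(AG1) against the log2 of the mean level over the 6 libraries (CPM + 0.1), 1 point per tested gene. Red points are the 1353 genes called up, blue points the 826 called down and grey points the rest, and the dashed lines mark 1 and -1. Named genes are circled, and PDC1 and the pyruvate, phosphate dikinase-like gene lie high on the level axis and inside the dashed lines.

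Gene descriptions were taken from tables of the study and covered 3237 of the tested genes, of which 500 were called (15.4%). An unselected block of chromosome 1 supplied 1407 of them, with 9.03% called, and the other 1830 had been listed by the study for a difference between lines, with 20.4% called. The lists of genes by function hold 296 described genes, 45 called up (15.2%) and 20 called down (6.76%). Most members of the lists come from the set chosen on these libraries, so a list's count is a description and no independent evidence of its direction. RNA was pooled tissue, in which fewer cells of a type and less RNA per cell cannot be told apart.

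**Figure D2:**
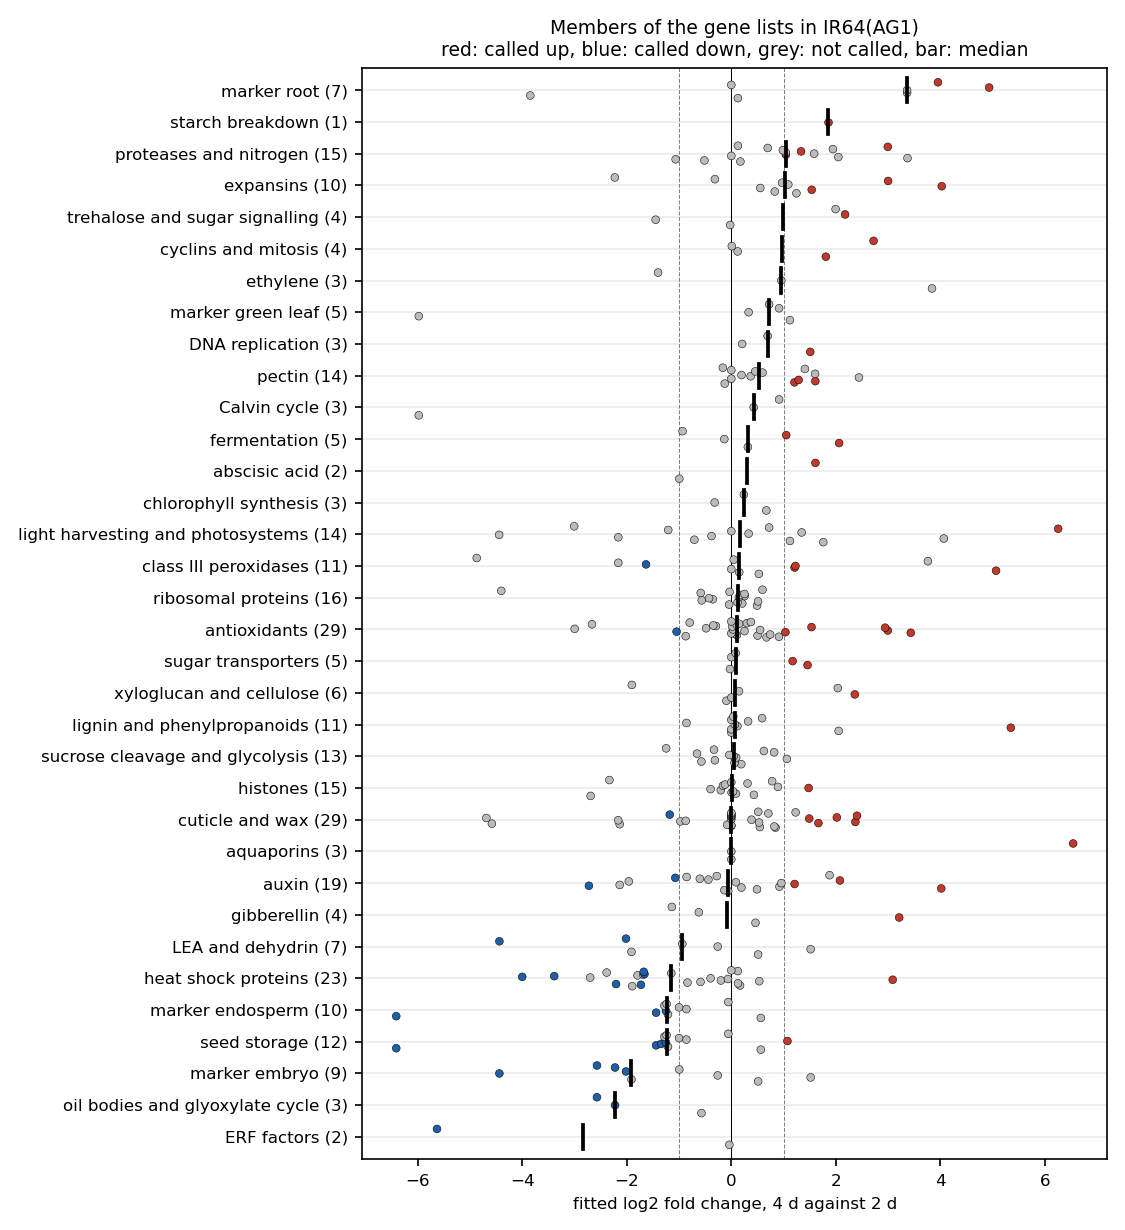
Fitted log2 fold change from 2 to 4 d in IR64(AG1) for each tested member of the gene lists, with the number tested after the list's name. Points are genes (red called up, blue called down, grey not called) and black bars are list medians. The expansin, pectin and protease lists have calls above 0 only, the heat shock list has 6 calls below 0 and 1 above, and the embryo and endosperm marker lists have calls below 0 only.

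Some genes of cell wall loosening rose by 4 d. Of 10 tested expansins, proteins that loosen the wall of growing cells, 3 rose, none fell and the list's median was 1.03 on the log2 scale. EXPA1 (OS04G0228400), an alpha-expansin, stood at 16.4, 18.5 and 15.1 CPM in replicates 1, 2 and 3 at 2 d and at 115, 130.2 and 155 CPM at 4 d. All 4 d libraries lay well above all 2 d libraries, and the fitted rise was 3.0 on the log2 scale (SE 0.27, edgeR adjusted p = 1.03e-10). Its level at the later days was 7.2 ± 3.89 CPM (SD, n = 3) at 8 d and 1.65 ± 0.217 CPM at 14 d, so the 4 d level was the highest of the 4 days by mean.

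EXPA2 (OS01G0823100) had 15.2, 14.3 and 7.6 CPM at 2 d and 31.8, 29.2 and 46.7 CPM at 4 d, a fitted rise of 1.54 (SE 0.27, edgeR adjusted p = 3.76e-05). EXPB11 (OS02G0658800), a beta-expansin, was near the floor at 2 d with 0.434, 1.31 and 0.866 CPM and reached 12.3, 13 and 15.1 CPM, a rise of 4.03 (SE 0.38, edgeR adjusted p = 3.2e-10). The libraries of the 2 days did not overlap in either gene. The gene the study names EXPA6 (OS03G0336400) went from 3.88 ± 0.803 to 7.56 ± 1.16 CPM (SD, n = 3), which missed the threshold on size at a log2 value of 0.97.

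Among 14 tested pectin genes, which modify the pectin of the wall, 3 rose and none fell, with a median of 0.53. The member highest in CPM, a pectin acetylesterase-like gene (OS04G0602500), had 1922, 2126 and 1893 CPM at 2 d and 2839, 3104 and 3048 CPM at 4 d without overlap, a log2 value of 0.60 under the threshold on size (edgeR adjusted p = 0.0157). The 3 that rose were pectinesterases, enzymes that remove methyl groups from pectin. The highest of the 3 in CPM, OS01G0312500, rose from 58.5, 67.7 and 50.1 CPM to 132, 138 and 160.4 CPM, by 1.29 on the log2 scale (SE 0.12, edgeR adjusted p = 3.8e-10). OS01G0254300 rose from 6.08 ± 0.49 to 18.5 ± 0.981 CPM and OS01G0234300 from 26.7 ± 5.74 to 61.4 ± 11.5 CPM (SD, n = 3). A gene with a xyloglucan fucosyltransferase domain (OS06G0211700), of the family that adds fucose to the hemicellulose xyloglucan, had 2.17, 1.64 and 3.6 CPM at 2 d and 15.3, 12.7 and 10.3 CPM at 4 d and was the single call among 6 genes of xyloglucan and cellulose.

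Secreted class III peroxidases, haem enzymes that cross-link wall polymers or produce radicals that loosen them, moved in both directions. Of 11 tested, 3 rose and 1 fell, with a median of 0.15, or 0.05 with members at 0 in all libraries of a day set to their bound against the floor. OS01G0326300 rose from 0.434, 0.574 and 1.07 CPM to 26.2, 16.7 and 25.9 CPM, by 5.07 (SE 0.38, edgeR adjusted p = 8.39e-13). OS05G0134400 rose less, from 22.3 ± 1.27 to 52.3 ± 3.37 CPM (SD, n = 3). OS04G0688300 had 76.6, 47.5 and 45.8 CPM at 4 d against 21.4, 25.4 and 26.7 CPM at 2 d, and without replicate 1 at 4 d its rise was 0.93, under the threshold on size. The gene that fell, OS05G0134700, had 26.4, 27 and 18.5 CPM at 2 d and 7.35, 9.46 and 6.49 CPM at 4 d, a log2 change of -1.63 (SE 0.28, edgeR adjusted p = 3.64e-05).

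Of the 10 largest rises among genes with at least 10 CPM in the higher group and no overlap of libraries, 5 had a description. A peroxidase 12-like gene (OS01G0962700) had 3, 4 and 2 counts at 2 d and 542, 411 and 557 counts at 4 d. In CPM these were 0.208 ± 0.105 and 29.9 ± 1.17 (SD, n = 3), and the fitted rise was 7.2 (SE 0.41, edgeR adjusted p = 1.99e-15). The 8 d level was 234 ± 69.6 CPM (SD, n = 3).

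A multicopper oxidase (OS01G0126900) rose from 0.65, 0.655 and 2.53 CPM to 61.8, 72.9 and 85.3 CPM, by 5.84 (SE 0.38, edgeR adjusted p = 2.21e-14). A salt-stress induced protein (OS01G0348800), known as salt protein and related to lectins that bind mannose, went from 4.5, 10.3 and 3.8 CPM to 270.0, 300.2 and 365 CPM, a rise of 5.69 (SE 0.44, edgeR adjusted p = 2.83e-12). Its later levels were 64.5 ± 53.9 CPM at 8 d and 0.0801 ± 0.0693 CPM at 14 d (SD, n = 3). A DREPP plasma membrane protein (OS01G0233000) was at 0.828 ± 0.617 CPM at 2 d and 43.9 ± 8.34 CPM at 4 d.

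**Figure D3:**
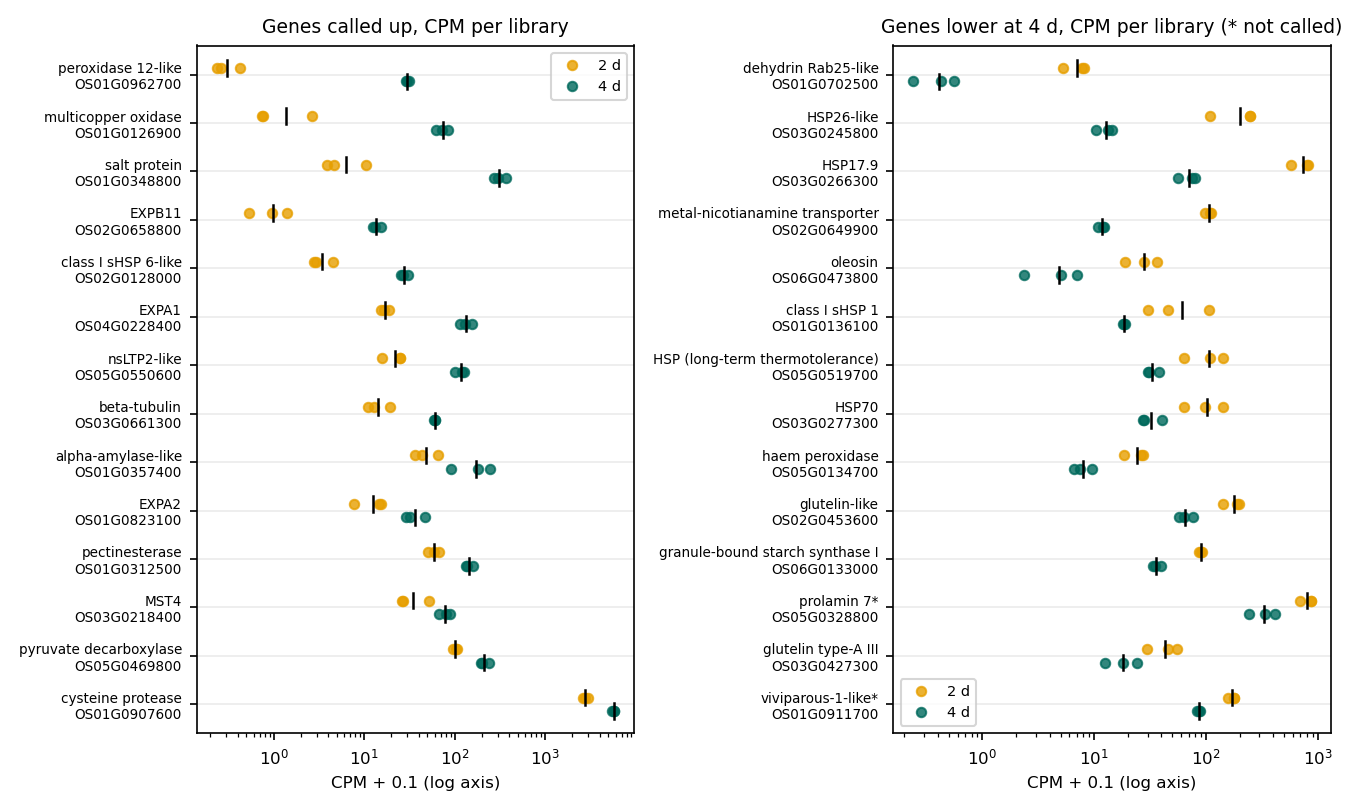
Levels of 28 genes in the 6 libraries of IR64(AG1), as CPM + 0.1 on a log axis, with orange points for the 3 libraries at 2 d, green points for the 3 at 4 d and black bars for the means. The left panel holds genes called up and the right panel genes lower at 4 d, where an asterisk marks those not called. The gene OS01G0136100, class I sHSP 1, has the widest spread at 2 d among the falls shown.

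Genes of the cytoskeleton appeared among the rises, and these 3 were chosen after their values were seen. A beta-tubulin (OS03G0661300), a subunit of microtubules, had 12.7, 19.3 and 10.9 CPM at 2 d and 59.3, 61.1 and 61.1 CPM at 4 d, a rise of 2.09 (SE 0.16, edgeR adjusted p = 3.39e-12). A kinesin-like gene (OS01G0260100), of a family of motors that walk along microtubules, rose from 1.58 ± 0.477 to 16.2 ± 2.09 CPM (SD, n = 3). A fimbrin-like gene (OS01G0514600), of a family that bundles actin, rose from 2.71 ± 0.787 to 20.1 ± 2.29 CPM.

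Reserve mobilisation and sugar entry were represented by few described genes. One alpha-amylase-like gene (OS01G0357400) was the single tested gene of the starch breakdown list, so the list says nothing of other amylases. Its level was 36.7, 64.6 and 43.4 CPM at 2 d and 248, 181 and 91.7 CPM at 4 d. The 4 d libraries differed widely among themselves, yet the lowest lay above the highest 2 d library, and the fitted rise was 1.85 (SE 0.34, edgeR adjusted p = 8.74e-05). Of 5 tested sugar transporters 2 rose and none fell. The hexose transporter MST4 (OS03G0218400) had 26.7, 26.2 and 51.3 CPM at 2 d, where replicate 3 was the high one, and 88.8, 79.9 and 66.4 CPM at 4 d, a rise of 1.17 (SE 0.29, edgeR adjusted p = 0.0031).

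In the fermentation list 2 of 5 tested genes were called up. All 5 are described as pyruvate decarboxylases or lactate dehydrogenases, so the list says nothing of alcohol dehydrogenases. PDC1 (OS05G0469600), a pyruvate decarboxylase, had 1127, 955 and 978 CPM at 2 d and 969, 862 and 958 CPM at 4 d. The ranges overlapped and the fitted log2 value was -0.13 (SE 0.38, edgeR adjusted p = 0.88), while the level at 8 d was 24.6 ± 9.55 CPM. A second pyruvate decarboxylase gene (OS05G0469800) went from 106, 103 and 96.3 CPM to 239, 199.7 and 196 CPM, a call at 1.05 (SE 0.29, edgeR adjusted p = 0.00788). That call was lost with DESeq2 (adjusted p = 0.0741), with library totals in place of TMM (0.95 on the log2 scale) and without replicate 1 at 4 d (0.95).

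A lactate dehydrogenase-like gene (OS02G0105400) rose from 0.615 ± 0.271 to 2.63 ± 0.509 CPM (SD, n = 3). None of 13 tested genes of sucrose cleavage and glycolysis was called, and their median was 0.04. The gene of that list highest in CPM, a pyruvate, phosphate dikinase-like gene (OS03G0432100) of the enzyme that interconverts pyruvate and phosphoenolpyruvate, had 4902, 5902 and 5336 CPM at 2 d and 8191, 8366 and 8289 CPM at 4 d. Its libraries did not overlap, but the spread of this gene pooled over the 16 groups of the fit gave an SE of 0.47 for a log2 value of 0.62 (edgeR adjusted p = 0.376).

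Of 15 tested protease and nitrogen genes 3 rose and none fell. Their median was 1.04, or 0.70 with members at 0 on a day set to their bound, and it moved to 0.53 without replicate 3 at 4 d, 0.65 without replicate 3 at 2 d and 0.18 with the steps the study describes. A cysteine protease (OS01G0907600), described as a negative regulator of cell death, had 2602, 2979 and 2733 CPM at 2 d and 5812, 5548 and 5790.1 CPM at 4 d. The fitted rise of 1.04 (SE 0.24, edgeR adjusted p = 0.00124) lay close to the threshold on size and was 0.95 with library totals in place of TMM. A serine carboxypeptidase II-like gene (OS02G0634700) rose from 24.7 ± 1.4 to 62.3 ± 5.95 CPM (SD, n = 3).

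In the cuticle and wax list 5 of 29 tested genes rose and 1 fell, with a median of 0. A lipid-transfer protein gene (OS05G0550600), of a family of small proteins that carry lipids outside the cell, rose from 25, 15.7 and 24.7 CPM to 122, 101 and 125 CPM, by 2.41 (SE 0.34, edgeR adjusted p = 1.84e-06). A 3-ketoacyl-CoA synthase-like gene (OS04G0116800), of the enzymes that lengthen fatty acids for waxes, rose from 4.07 ± 2.05 to 16.2 ± 5.65 CPM (SD, n = 3). A plasma membrane intrinsic protein (OS02G0823100), of the family of water channels, rose from 14.4 ± 2.32 to 50 ± 3.53 CPM, and was chosen after its values were seen.

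Of 4 tested genes that the gibberellin list matched by description 1 rose and none fell, and the median was -0.08. Some diterpene synthases of rice make labdane-related phytoalexins, which are antimicrobial diterpenes, from precursors shared with gibberellin. A description as a diterpene synthase does not tell which of these products a gene serves. The ent-kaurene synthase 1A-like gene (OS02G0570400) was the one that rose, from 3.47, 1.88 and 3.0 CPM to 25.8, 23.6 and 29.8 CPM, by 3.21 (SE 0.27, edgeR adjusted p = 2.06e-11). In the same list OS03G0760800 and OS05G0432200 were lower at 4 d without overlap and were not called (log2 values of -0.62 and -1.14). With the steps the study describes the list had 1 rise and 1 fall. The next 4 genes, in no list, were chosen after their values were seen. A syn-copalyl diphosphate synthase-like gene (OS04G0178300) rose from 0.916 ± 0.317 to 19 ± 3.4 CPM (SD, n = 3) and the syn-pimara-7,15-diene synthase gene (OS04G0179700) from 0.766 ± 0.0865 to 7.03 ± 1.22 CPM. A cytochrome P450 gene (OS02G0569900) went from 1.07 ± 0.497 to 20.2 ± 0.899 CPM. GA 3-beta-hydroxylase 2 (OS01G0177400), which makes bioactive gibberellin, rose from 7.01 ± 0.657 to 16.3 ± 2.37 CPM.

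Heat shock proteins are chaperones that bind unfolded proteins, and most of the calls among them were falls. Of 23 tested members 6 fell and 1 rose, and the median was -1.15. The summed level of the list was 1014 to 1825 CPM in the 2 d libraries and 331 to 373 CPM at 4 d. HSP17.9 (OS03G0266300), a small class I heat shock protein and the member highest in CPM, had 808, 571 and 819 CPM at 2 d and 55.8, 74.8 and 79.3 CPM at 4 d. The fitted log2 change was -3.39 (SE 0.38, edgeR adjusted p = 2.03e-08). An HSP26-like gene (OS03G0245800) had 248, 108 and 249.7 CPM at 2 d, with replicate 2 low, and 13.2, 10.2 and 14.2 CPM at 4 d, a change of -4.0 (SE 0.71, edgeR adjusted p = 5.76e-05).

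The calls of the other 4 falls were lost when single libraries were left out. The neighbouring IDs OS01G0136100 and OS01G0136200 are both described as class I heat shock protein 1, and reads of such close copies can be split uncertainly between them. OS01G0136100 had 106, 30.4 and 46 CPM at 2 d and 18.8, 18.4 and 18.1 CPM at 4 d, and OS01G0136200 had 41.5, 8.6 and 13.4 CPM and 4.31, 4.13 and 5.42 CPM. In both, replicate 1 at 2 d was higher than every other library, and without it the edgeR adjusted p was 0.171 for OS01G0136100 and 0.281 for OS01G0136200. HSP70 (OS03G0277300) had 143, 63.4 and 97.7 CPM at 2 d and 28.1, 27.3 and 40.6 CPM at 4 d. A heat shock protein of long-term thermotolerance (OS05G0519700) had 143, 64 and 109 CPM and 30.7, 30.5 and 37.9 CPM, and both were lost without replicate 1 at 2 d (edgeR adjusted p = 0.0830 and 0.0843). The list had 2 falls without replicate 1 at 2 d, with a median of -0.54, and 3 without replicate 1 or without replicate 2 at 4 d.

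The single member called up, a class I small heat shock protein 6-like gene (OS02G0128000), rose from 2.66, 4.42 and 2.87 CPM to 25.7, 27 and 30.3 CPM, by 3.09 (SE 0.22, edgeR adjusted p = 4.53e-13). At 8 d the mean of HSP17.9 was 926 ± 659 CPM (SD, n = 3), with 3 libraries that lay far apart. HSP26-like had 195 ± 221 CPM at 8 d and 22.4 ± 12.1 CPM at 14 d.

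**Figure D4:**
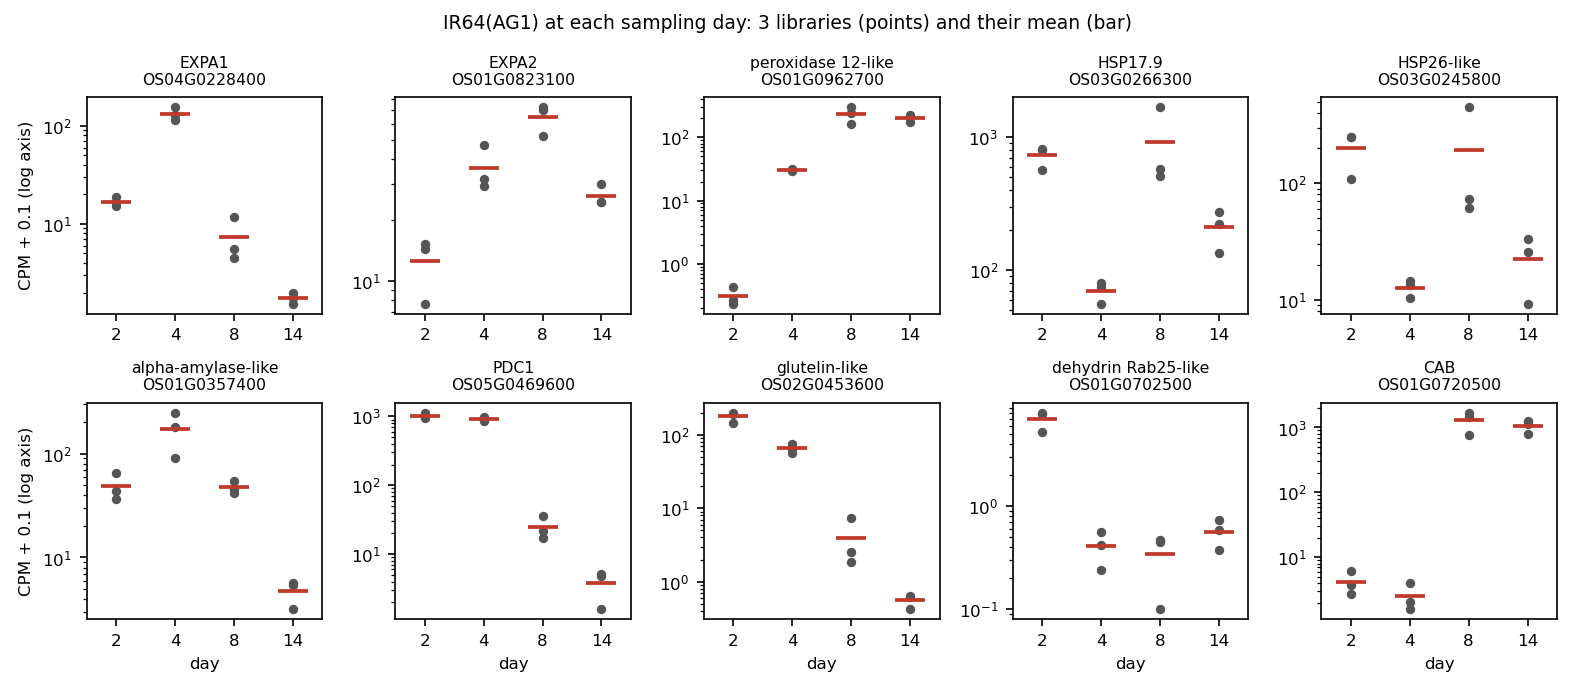
Levels of 10 genes in IR64(AG1) at 2, 4, 8 and 14 d, as CPM + 0.1 on a log axis, with points for the 3 libraries of a day and bars for their mean. EXPA1 and the alpha-amylase-like gene have their highest mean at 4 d, HSP17.9 and HSP26-like their lowest, and PDC1 and the glutelin-like gene are lower at 8 and 14 d than at 4 d. CAB, a chlorophyll a/b-binding protein gene, is at a few CPM at 2 and 4 d and over 1000 CPM at 8 and 14 d.

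Some genes of the mature seed fell by 4 d. Late embryogenesis abundant proteins and dehydrins protect the dry seed, and of 7 tested genes in their list 2 fell and none rose. The list's median was -0.94, and it was -0.43 without replicate 1 at 4 d, -1.51 without replicate 3 at 4 d and -0.56 with the steps the study describes. The -0.94 is the value of OS01G0339500, described as similar to no apical meristem protein, which is not described as either kind of protein. The dehydrin Rab25-like gene (OS01G0702500) had 7.7, 5.16 and 7.93 CPM at 2 d and 0.459, 0.14 and 0.322 CPM at 4 d, a change of -4.44 (SE 0.66, edgeR adjusted p = 3.8e-06). An oleosin (OS06G0473800), a coat protein of oil bodies, had 27.5, 18.9 and 36.1 CPM at 2 d and 5.0, 6.87 and 2.25 CPM at 4 d, a change of -2.57 (SE 0.40, edgeR adjusted p = 6.45e-06). A steroleosin-B-like gene (OS03G0842900) fell from 2.87 ± 0.505 to 0.616 ± 0.264 CPM (SD, n = 3), and this call was lost without replicate 3 at 2 d, replicate 1 at 4 d or replicate 3 at 4 d (edgeR adjusted p = 0.0640 to 0.0912).

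Of 12 tested seed storage genes 4 fell and 1 rose, with a median of -1.23, and 2 fell and none rose without replicate 2 at 2 d, while 7 fell with these 6 libraries fitted alone. A glutelin-like gene (OS02G0453600) fell from 143, 191 and 199 CPM to 63.7, 75.7 and 56.9 CPM, by -1.44 on the log2 scale (SE 0.24, edgeR adjusted p = 3.08e-05). Glutelin type-A III (OS03G0427300) had 29.5, 54.4 and 45.5 CPM and 23.9, 17.9 and 12.4 CPM, and its call was lost without replicate 2 at 2 d (edgeR adjusted p = 0.0515) or replicate 3 at 4 d (0.0649). Prolamin 7 (OS05G0328800), the member highest in CPM, went from 689, 868 and 866 CPM to 417, 339 and 241 CPM without overlap, yet missed the test at an edgeR adjusted p of 0.063. The member that rose, an alpha-amylase/trypsin inhibitor-like gene (OS03G0661600), went from 97.3 ± 20.1 to 205 ± 19.6 CPM, and belongs to a family of seed proteins that inhibit digestive enzymes.

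Granule-bound starch synthase I (OS06G0133000), which makes amylose in the endosperm and was chosen after its values were seen, fell from 89.8 ± 3.49 to 36 ± 2.85 CPM. Its adjusted p was 0.00153 in edgeR and 0.0634 in DESeq2. A metal-nicotianamine transporter (OS02G0649900), a carrier of iron and manganese, fell from 111, 108 and 97.5 CPM to 10.7, 12.1 and 11.8 CPM, by -3.19 on the log2 scale (SE 0.32, edgeR adjusted p = 1.55e-09).

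The tissue labels were set beside marker lists of other tissues. Summed over 9 tested embryo markers the level was 202 to 234 CPM at 2 d and 90.2 to 100.3 CPM at 4 d, and 4 of the 9 fell. Most of that sum on both days was the viviparous-1-like gene, itself not called. The viviparous-1-like gene (OS01G0911700), a regulator of seed maturation and the one highest in CPM, had 157, 178 and 179 CPM at 2 d and 88, 86.8 and 83.2 CPM at 4 d, a log2 value of -0.996 just inside the threshold on size (edgeR adjusted p = 0.00563). It was called down in 7 of 13 alternative settings, among them library totals, the 6 libraries alone and each of 3 libraries left out. The 10 endosperm markers summed to 1137 to 1446 CPM at 2 d and 523 to 758 CPM at 4 d, so transcripts of these genes were present in libraries of both labels. The tissue they came from was not tested. Of these markers 3 fell, or 5 with library totals in place of TMM and 6 with these 6 libraries fitted alone. Prolamin 7, not called, held 808 ± 103 CPM of the sum at 2 d and 332 ± 88.6 CPM at 4 d (SD, n = 3). The part of embryo and endosperm tissue in the falls of seed genes was not tested. No described gene was tested among shoot meristem markers.

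Light harvesting genes were low on both days. None of 5 green leaf markers was called, and they summed to 114 to 129 CPM at 2 d and 219 to 231 CPM at 4 d. Nearly all of that sum was a phosphoribulokinase/uridine kinase family gene (OS04G0596900), at 115 ± 7.86 and 216 ± 5.2 CPM (SD, n = 3; log2 value 0.91, not called), and the other 4 had means of at most 3.13 CPM at 2 d and 4.53 CPM at 4 d. Of 14 light harvesting and photosystem genes, whose summed level was 12.1 to 16.1 CPM at 2 d and 12.5 to 15.7 CPM at 4 d, 1 rose and none fell. CAB (OS01G0720500) had 2.66, 3.69 and 6.0 CPM at 2 d and 1.49, 1.96 and 3.91 CPM at 4 d. Its ranges overlapped (edgeR adjusted p = 0.379), and its 8 d level was 1309 ± 477 CPM (SD, n = 3).

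Root genes were low at both ages. Their 7 markers summed to 3.60 to 5.53 CPM at 2 d and 15.6 to 21.5 CPM at 4 d, and 2 rose. Both are described as similar to RCc3, a root-specific protein, and are close copies. The one higher in CPM, OS04G0554800, had 0.705, 0.492 and 0.933 CPM at 2 d and 12.3, 13.9 and 7.88 CPM at 4 d, and its level was 434 ± 44.2 CPM (SD, n = 3) at 8 d.

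Among hormone genes, 3 of 19 tested auxin genes rose and 2 fell, and without replicate 1 at 2 d 1 rose and 2 fell. The list held IAA18-like (OS02G0228900) at 1.69 ± 0.797 and 7.02 ± 1.65 CPM (SD, n = 3) and IAA12-like (OS02G0805100), both repressors of auxin response, at 44.7, 39 and 64.6 CPM and 20.6, 22.5 and 27.4 CPM. The fall of IAA12-like was lost without replicate 3 at 2 d (edgeR adjusted p = 0.105) or replicate 1 at 4 d (0.0626). Abscisic stress ripening protein 1 (OS02G0543000), a protein of drought and ripening, rose from 3.54 ± 1.72 to 10.9 ± 3.08 CPM. None of 16 genes described as ribosomal proteins or by a ribosomal protein domain was called, with a median of 0.13.

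Of 29 antioxidant genes 5 rose and 1 fell, and 3 rose without replicate 1 at 2 d. Catalase A (OS02G0115700), which breaks down hydrogen peroxide and was chosen after its values were seen, rose from 5.93 ± 0.969 to 17.3 ± 3.88 CPM (SD, n = 3). A receptor-like protein described in root development and salt stress (OS04G0659300), also chosen after its values were seen, rose from 632, 385 and 787 CPM to 1993, 1971 and 1936 CPM, by 1.71 (SE 0.38, edgeR adjusted p = 0.000875). Its 2 d libraries spread far more than its 4 d libraries.

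The genes highest in CPM were largely the same on both days, with 8 shared between the 10 highest at 2 d and the 10 highest at 4 d. None of the 10 highest at 2 d was called and 1 of the 10 at 4 d was. That gene, OS02G0765600, has no description in the tables and rose from 3267, 3379 and 3573 CPM to 13740.3, 13588 and 13428 CPM, by 2.0 (SE 0.21, edgeR adjusted p = 6.12e-09). The largest fall among genes of at least 10 CPM was also undescribed, OS04G0352400, from 414, 265 and 397 CPM to 15.4, 15.8 and 16.2 CPM.

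The same step from 2 to 4 d was then set against that of the other lines, which share no library with IR64(AG1). In IR64, 2639 genes were called (10.1%), and 1324 of them moved the same way in IR64(AG1), 60.8% of the calls of IR64(AG1) and 50.2% of those of IR64, and 2 in the opposite direction. IR64(SUB1) had 3134 calls (12%) and shared 1371, which is 62.9% of the calls of IR64(AG1) and 43.7% of its own. The pyramided line, with 2 libraries per day, had 3052 (11.7%) and shared 1161, or 53.3% and 38%.

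A gene called in one line and not in another is not thereby shown to differ, so the difference of the changes was tested by an interaction contrast. Against IR64, 13 genes passed (0.0497%), all with a log2 difference below -1. At an unadjusted p under 0.05, 487 genes had a log2 difference above 1 and 537 one below -1, and DESeq2 called 108 genes, 42 above 1 and 66 below -1. In 12 of the 13 genes the 3 libraries of IR64(AG1) at 2 d all lay above those of IR64. The contrast that picked these genes uses the 2 d levels, so this count describes the selection and is no separate result. The share over all tested genes was not computed. The count was 3 without replicate 2 of IR64(AG1) at 2 d, 6 without its replicate 1 at 4 d, 4 without replicate 1 of IR64 at 2 d and 5 without replicate 1 of IR64 at 4 d.

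Beta-tubulin OS03G0661300, named above, differed by -1.23 on the log2 scale (SE 0.24, edgeR adjusted p = 0.0238). Its level was 14.3 ± 4.39 CPM in IR64(AG1) and 5.95 ± 2.18 CPM in IR64 at 2 d (SD, n = 3), and 60.5 ± 1.03 and 58.8 ± 8.37 CPM at 4 d. An amino acid transporter (OS01G0825800) went from 28.6 ± 4.62 to 14.4 ± 2.58 CPM in IR64(AG1) and from 13.2 ± 3.04 to 23.8 ± 7.81 CPM in IR64, a difference of -1.83 (SE 0.32, edgeR adjusted p = 0.0158). Both genes were higher in IR64(AG1) at 2 d.

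The exception was OS03G0736900, similar to a sorghum protein targeted to organelles, which was chosen after its values were seen. It fell from 50.4 ± 2.23 to 10.3 ± 0.395 CPM in IR64(AG1) and from 70.2 ± 8.76 to 32 ± 3.78 CPM in IR64 (SD, n = 3), a difference of -1.15 (SE 0.22, edgeR adjusted p = 0.0216). A tir-nbs resistance-like gene (OS09G0481600) was at 2.03 ± 0.812 and 2.24 ± 0.339 CPM in IR64(AG1) and was at 0.325 ± 0.0891 and 2.6 ± 1.3 CPM in IR64. Of the undescribed genes, OS10G0109300 rose from 5.89 ± 2.32 to 78.7 ± 1.7 CPM in IR64(AG1) and from 0.40 ± 0.121 to 29.9 ± 0.151 CPM in IR64. OS07G0691300 went from 12 ± 2.38 to 3.44 ± 1.03 CPM against 3.0 ± 0.695 to 3.74 ± 0.894 CPM.

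Against IR64(SUB1) the change differed in 134 genes (0.512%), 28 above 1 (0.107%) and 106 below -1 (0.405%). Of the 106, IR64(AG1) had all its 2 d libraries above those of IR64(SUB1) in 92, and all its 4 d libraries above in 18 and below in 37. Against the pyramided line 217 genes differed (0.829%), 41 above 1 (0.157%) and 176 below -1 (0.672%), and in 174 of the 176 all 2 d libraries of IR64(AG1) lay above. The 2 d and 4 d levels entered the contrasts that picked these genes, so these counts of libraries also describe the selection. Leaving out replicate 1 of IR64(AG1) at 4 d gave 85 genes against IR64(SUB1). Leaving out its replicate 1 or 2 at 2 d gave 133 or 132 against the pyramided line.

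The levels of EXPA1 on both days enter the contrast, and no test between lines on a single day was run. At 2 d EXPA1 stood at 16.7 ± 1.72 CPM in IR64(AG1), 3.58 ± 1.56 CPM in IR64 and 1.73 ± 0.439 CPM in IR64(SUB1) (SD, n = 3). At 4 d the same lines had 133 ± 20.2, 99 ± 10.6 and 114 ± 14.4 CPM. Its rise in IR64(AG1) was smaller than in IR64(SUB1) by a log2 difference of -3.05 (SE 0.43, edgeR adjusted p = 6.94e-05), and the difference from IR64 was not called (-1.81, SE 0.40, edgeR adjusted p = 0.0697).

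The ent-kaurene synthase 1A-like gene differed from IR64(SUB1) by -5.08 (SE 0.83, edgeR adjusted p = 0.000621), with 0.0387 ± 0.0348 CPM there at 2 d, under the floor, and 15.1 ± 4.85 CPM at 4 d. The fimbrin-like gene rose from 0.498 ± 0.155 to 21.5 ± 3.07 CPM in IR64(SUB1), a difference of -2.52 (SE 0.41, edgeR adjusted p = 0.000544). EXPA2 went the other way against the pyramided line, where it was at 19.8 ± 1.52 CPM at 2 d and 14.1 ± 0.502 CPM at 4 d (SD, n = 2), a difference of 2.03 (SE 0.42, edgeR adjusted p = 0.0109).

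**Figure D5:**
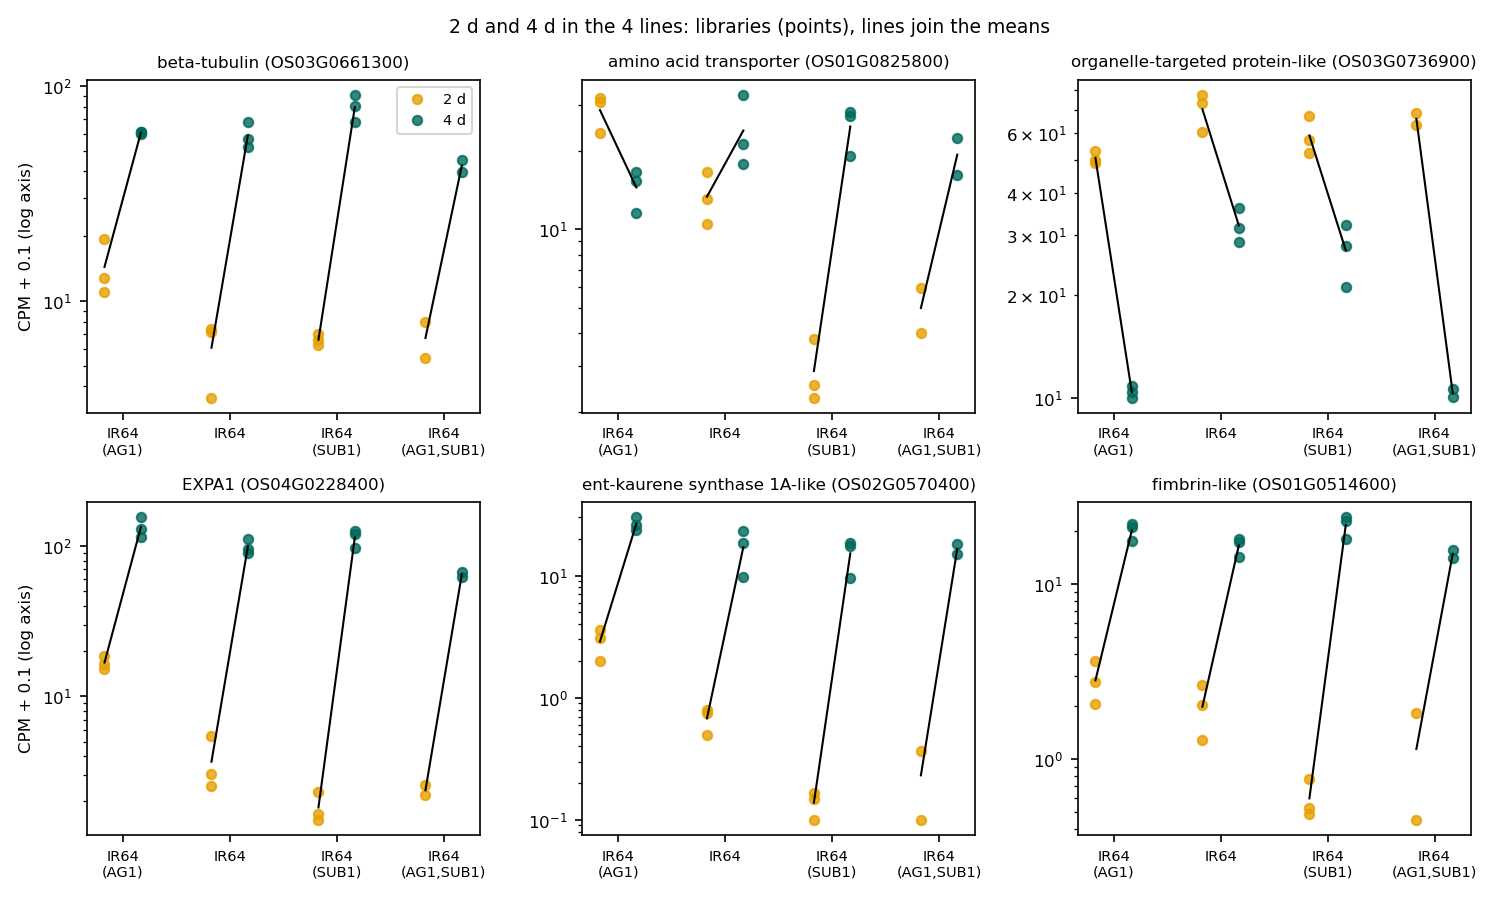
Levels of 6 genes at 2 d (orange) and 4 d (green) in the 4 lines, as CPM + 0.1 on a log axis, with points for libraries and black lines between the means. Beta-tubulin, EXPA1 and the ent-kaurene synthase 1A-like gene start higher at 2 d in IR64(AG1) than in the other lines, and the amino acid transporter goes down in IR64(AG1) and up in the other 3 lines.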

How the data were processed

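The authors deposited a table of raw read counts per gene for 35677 genes in 45 libraries of 16 groups. They trimmed the reads, aligned them with TopHat2 2.0.14 and Bowtie2 2.2.5 to the rice genome IRGSP 1.0 with SUB1A-1 added, and counted reads over exons. Counts of a gene say nothing of its length, and coordinates were not used here. Here edgeR 4.0.16 (R 4.3.3) was run on the deposited counts of all 45 libraries with filterByExpr, TMM factors, 1 coefficient per group and the quasi-likelihood test. The SE printed with a log2 value is its absolute value divided by the square root of the F statistic of that test. This SE rests on a spread pooled over the 16 groups and is not the spread of the compared libraries alone. The fit recovered 92% of 200 genes changed 4-fold in simulated data, with smaller changes not simulated, with 6 false calls among 24842 genes. The changed genes had middle count levels, all genes shared the same spread, and no other difference between groups was simulated. The share therefore does not cover genes near the floor or genes with a wide spread. The members, gene lists and tests were chosen with earlier results of these data known. Named genes were taken from the 3 largest called rises and falls and the member of each list highest in CPM, the 10 largest changes of at least 10 CPM without overlap, the 10 genes highest in CPM per day, up to 5 interactions each way and genes the study names; not all of these are printed, and exceptions are marked. The alternatives were DESeq2 1.42.0, other filters, factors and samples, a replicate term and single libraries of IR64(AG1) or IR64 left out. Descriptions matched by pattern, so a list can hold a gene of another role.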

Additional observations from a re-analysis of the deposited data

Results flagged for a closer look

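For these genes the change from 2 to 4 d in IR64(AG1) differed from that in another line by the interaction test of edgeR, given as the log2 change in IR64(AG1) minus that in the other line. No explanation was tested for any of them.

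Against IR64, the differences were -1.23 for the beta-tubulin (OS03G0661300), -1.83 for the amino acid transporter (OS01G0825800), -1.15 for the organelle-targeted protein-like gene (OS03G0736900) and -2.83 for the tir-nbs resistance-like gene (OS09G0481600). The undescribed genes OS10G0109300 and OS07G0691300 had -2.38 and -2.15. The adjusted p of these 6 ran from 0.0158 to 0.0390. Without replicate 2 of IR64(AG1) at 2 d the beta-tubulin (adjusted p = 0.109), the amino acid transporter (0.0527), OS03G0736900 (0.0675), OS09G0481600 (0.128) and OS10G0109300 (0.0976) were no longer called. Over 19 alternatives the call was lost in 11 for OS09G0481600, in 6 each for OS03G0736900 and OS10G0109300, in 4 each for the beta-tubulin and OS07G0691300 and in 3 for the amino acid transporter.

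Against IR64(SUB1), the same measure was -3.05 for EXPA1 (OS04G0228400), -1.51 for the beta-tubulin (OS03G0661300), -2.52 for the fimbrin-like gene (OS01G0514600) and -1.02 for the carboxypeptidase II-like gene (OS02G0634700). The ent-kaurene synthase 1A-like gene (OS02G0570400) had -5.08, abscisic stress ripening protein 1 (OS02G0543000) -1.88 and the receptor-like protein (OS04G0659300) -2.15. The amylase/trypsin inhibitor-like gene (OS03G0661600) had -1.6, the amino acid transporter (OS01G0825800) -4.19 and OS03G0736900 -1.17. The amino acid transporter had the smallest adjusted p of these, 1.1e-09, with means of 2.76 ± 0.818 CPM at 2 d and 24.7 ± 4.93 CPM at 4 d in IR64(SUB1) (SD, n = 3). Over 13 alternatives the call was lost in 6 for the receptor-like protein, 5 of them single libraries of IR64(AG1) left out (adjusted p = 0.0625 to 0.0837), in 4 for the carboxypeptidase II-like gene and in 1 each for abscisic stress ripening protein 1 and the amylase/trypsin inhibitor-like gene. None of these alternatives left out a library of IR64(SUB1).

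Against the pyramided line, which has 2 libraries per day, EXPA1 (OS04G0228400) had -1.83, with an adjusted p of 0.0499 that rose above the threshold when any of the 6 libraries of IR64(AG1) was left out (0.0522 to 0.0998), as it did with upper quartile factors (0.0586), the steps of the study (0.0668) and the replicate block (0.0753). EXPA2 (OS01G0823100) had 2.03, the DREPP protein (OS01G0233000) 2.42, the ent-kaurene synthase 1A-like gene (OS02G0570400) -3.83, the dehydrin Rab25-like gene (OS01G0702500) -4.52 and the amino acid transporter (OS01G0825800) -2.97. The dehydrin was at 3.08 ± 2.1 CPM at 2 d and 3.17 ± 1.96 CPM at 4 d in the pyramided line (SD, n = 2). No alternative left out a library of the pyramided line. The DREPP protein was not called without replicate 1 (adjusted p = 0.0743) or replicate 2 (0.0523) at 2 d, and the ent-kaurene synthase 1A-like gene was at -2.01 and not called with the steps the study describes (adjusted p = 0.0731).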

How the results depend on the processing

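The count of 2179 genes between 2 and 4 d was 2106 without a filter on low counts, 2153 with library totals, 2178 with upper quartile factors, 1906 with the steps the study describes, 1794 with the 6 libraries alone, 2435 with DESeq2 and 1738 to 2129 with 1 library left out. The counts of differing changes depended more on the setting. Against IR64, 13 genes became 40 with only the groups compared, 108 with DESeq2 and 3 to 16 with 1 library left out. Against IR64(SUB1), 134 became 241, 275 and 85 to 124, and against the pyramided line 217 became 80, 407 and 132 to 217, and 131 with the steps of the study. The libraries left out were those of IR64(AG1), and also those of IR64 in the contrast with it. No library of IR64(SUB1) or of the pyramided line was left out. The cause of these shifts in the counts was not tested.

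Over all genes, same-numbered libraries of the 2 days in IR64(AG1) did not deviate together (r = 0.0036, -0.000076 and -0.011). With 3 libraries per day and levels that carry count noise, these values cannot exclude a pairing by number. At 2 d replicate 2 had the lowest total count in every line (12256409 to 13589509), and what the numbers stand for was not tested. With the replicate number as a block the counts were 2168, 15, 147 and 213. Of 767 alternative values of 59 named called genes 740 kept their call and direction, 27 lost the call and none reversed, and 58 of 322 alternative values of the 22 named differences lost it. Of 156 such values of 12 genes not called, 19 became calls. The genes followed in this way include OS01G0524500 and OS11G0267000, which are not printed above. They leave out OS03G0760800, OS05G0432200 and OS01G0339500, which are printed above. The tir-nbs resistance-like gene OS09G0481600, not called, reversed to -0.0501 without replicate 1 at 2 d and ranged up to 0.516 with another library left out. A change among genes under 3 counts per library on both days was not detectable at this depth.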
